A study of Rattus norvegicus with 21 samples.

Results

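The comparison described here is that of the highest dose of tert-butylphenyl diphenyl phosphate (BPDP), 1032.5 mg/kg (2.7 mmol/kg), with the corn oil vehicle in rat liver. Its members are the 3 arrays labelled with that dose and the 6 labelled with a dose of 0, so that 9 of the 21 arrays of the series enter it. All animals were male Harlan Sprague Dawley rats, dosed by oral gavage once a day on 4 days in corn oil, which the vehicle group received alone. Liver pieces were taken from the left lobe the day after the last dose, and biotin-labelled RNA was hybridised to Affymetrix rat arrays. The other 12 arrays, 3 at each of 64.6, 129.2, 258.1 and 516.2 mg/kg, contributed to the estimate of spread and place the top dose in the series. The treatment protocol speaks of 5 vehicle rats while 6 vehicle arrays are listed, and the labels do not say that each array is a separate animal. The p-values below therefore measure the spread between arrays.

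BPDP is an aryl phosphate ester that serves in plastics and hydraulic fluids to retard flame. The liver responds to many foreign compounds through ligand-activated receptors: CAR and PXR induce cytochromes P450, transferases and transporters, the aryl hydrocarbon receptor induces the Cyp1 family, and PPAR alpha induces the enzymes that shorten and burn fatty acids. Oxidants and electrophiles release the factor Nrf2, which drives glutathione synthesis and reducing enzymes. The liver also runs a circadian clock, in which Bmal1 with Clock or Npas2 activates Per, Cry, Nr1d1 and Dbp, and the products of these genes feed back on it.

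At 1032.5 mg/kg 1272 of 14217 genes differed from the vehicle in the limma fit of all 21 arrays after Benjamini-Hochberg adjustment, which is 8.95% of the genes tested. Of these, 684 were higher (4.81%) and 588 lower (4.14%). Values are log2 RMA signals, a gene is represented by its brightest probe set that names it alone, and a gene is said to have risen, fallen or been called where its adjusted p was under 0.05. Most changes were small: 101 genes rose and 75 fell at least 2-fold, and 18 rose and 16 fell at least 4-fold. The 3 treated arrays lay beyond all 6 vehicle arrays for 606 of the 684 genes called higher and 525 of the 588 called lower, against 14.0% of all genes. The genes were called on these same arrays, so this separation follows largely from the calling and is no separate evidence. Leaving out treated replicate 2 lowered the count of called genes from 1272 to 769. Vehicle replicate 6 correlated less well with its group than the other vehicle arrays did (mean r over probe sets 0.989 against 0.993 for the nearest), and 1345 genes were called without it. RNA integrity was read from the Gapdh and actin control probe sets as signal at the 5′ end minus that at the 3′ end. It was -1.54 ± 0.37 (SD, n = 3) at the top dose and -1.95 ± 0.29 (n = 6) in the vehicle group, a difference that did not pass an exact two-sided permutation test (p = 0.0952). Treated replicates 2 and 3, at -1.37 and -1.28, nevertheless lay above all vehicle arrays, which ran from -2.40 to -1.68. With this measure as a covariate 1208 genes were called.

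The tissue label was borne out by hepatocyte markers. Alb stood at 15.35, 15.34 and 15.34 on the treated arrays and at 15.34 (median) in the vehicle group, close to the top of the scale, where differences are compressed. Of 20 measured hepatocyte markers none rose, and 2 fell slightly, Apoc3 (log2 change -0.25, SE 0.06, adjusted p = 0.00803) and Ahsg (log2 change -0.19, SE 0.06, adjusted p = 0.0466). The call for Apoc3 was lost without treated replicate 3 (adjusted p = 0.0624) and with the replicate number as a block (adjusted p = 0.0608). That for Ahsg was lost without any 1 of the treated arrays (adjusted p = 0.0808, 0.215 and 0.0945) and under 13 alternatives in all.

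**Figure D1:**
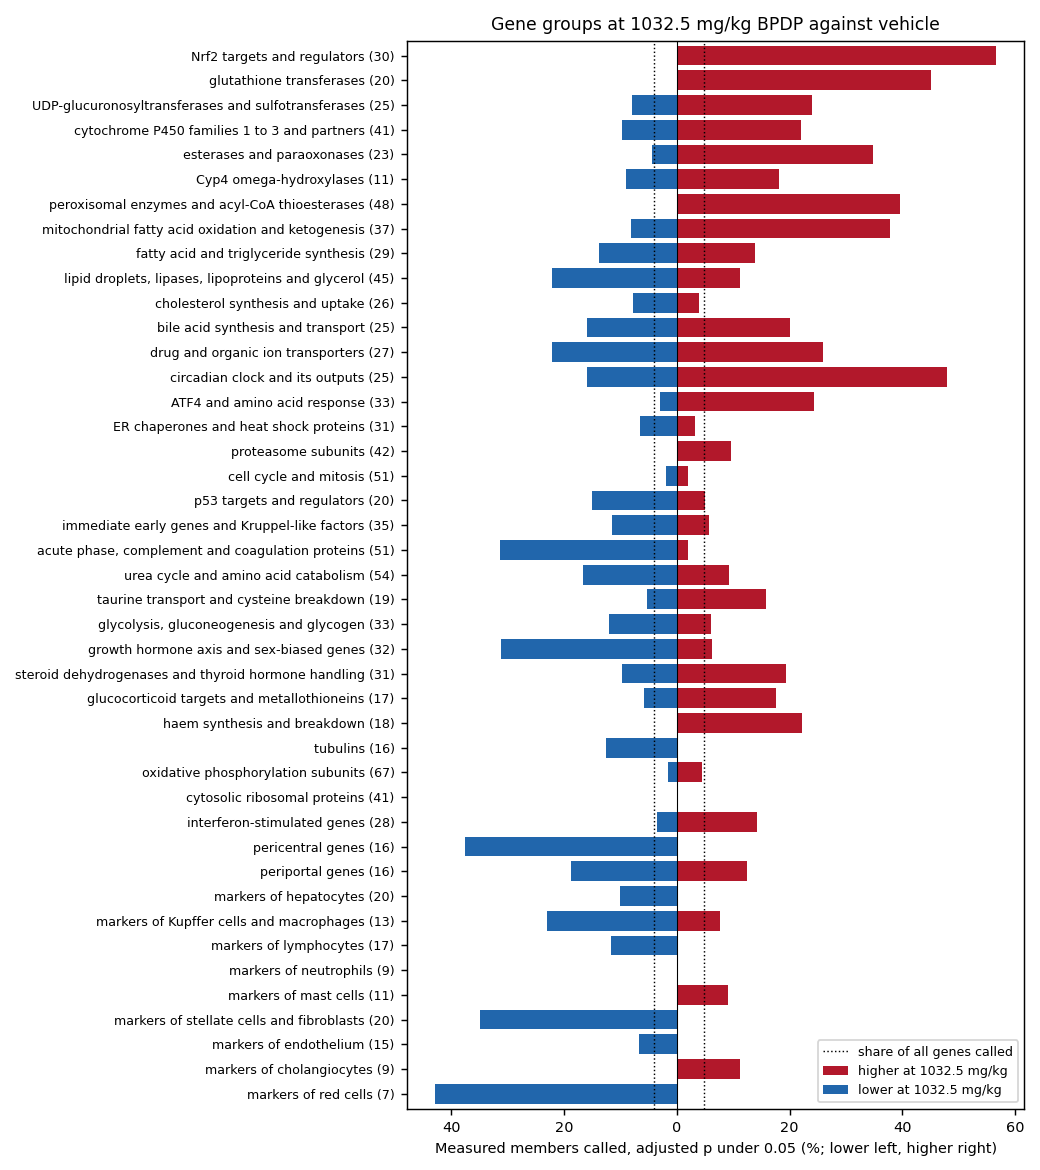
Share of the measured members of each gene group (number measured in brackets) that were called higher (right, red) or lower (left, blue) at 1032.5 mg/kg against vehicle, with dotted lines at the share of all genes called higher (4.81%) and lower (4.14%). The Nrf2, glutathione transferase and clock groups reach furthest to the right, and the red cell, pericentral and stellate cell groups furthest to the left.

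Genes of glutathione and electrophile defence were called in 1 direction. Of 30 measured Nrf2 targets and regulators 17 rose and none fell, with a median log2 change of 0.67 over the list against -0.01 over all genes. Akr7a3, an aldehyde reductase that acts on aflatoxin dialdehyde (probe set 1368121_at), stood between 11.20 and 11.81 (median 11.26) on the vehicle arrays and at 13.32, 13.87 and 13.60 on the treated ones. All treated arrays lay above all vehicle arrays, and the rise was 4.73-fold (log2 change 2.24, SE 0.14, adjusted p = 6.13e-09). Me1, the malic enzyme that supplies NADPH, ran from 8.28 to 9.25 (median 8.89) in the vehicle group and read 9.90, 11.002 and 11.12 after treatment, a 3.47-fold rise without overlap (adjusted p = 0.000103). Both subunits of glutamate-cysteine ligase, which makes the first step of glutathione synthesis, rose: the modifier Gclm 3.04-fold (adjusted p = 3.89e-07) and the catalytic Gclc 2.42-fold (adjusted p = 0.000155).

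Other members of the Nrf2 list rested on fewer arrays. Maff, a small Maf protein that pairs with Nrf2, stood at 6.34, 8.45 and 5.96 on the treated arrays against a vehicle range of 4.69 to 5.72, so that treated replicate 2 lay far above the others (adjusted p = 0.00184). Haem oxygenase Hmox1 showed the same order, with 9.96, 10.9998 and 9.74 against 8.77 to 9.98, and 2 treated arrays lay inside the vehicle range. Its call (adjusted p = 0.018) was lost without treated replicate 2 (adjusted p = 0.19) and with only the 2 groups in the fit (adjusted p = 0.067). The quinone reductase Nqo1, at 9.42, 9.94 and 9.71 against 8.73 to 9.05, rose 1.70-fold (adjusted p = 0.00413), a call lost without treated replicate 2 (adjusted p = 0.0507). Without that array 11 of the 30 members were called higher.

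Of 20 measured glutathione transferases, the enzymes that join glutathione to electrophiles, 9 rose and none fell. Gsta3 (probe set 1371089_at) ran from 7.54 to 8.39 (median 8.03) in the vehicle group and stood at 10.61, 10.77 and 10.998 at the top dose. The groups were far apart, and the means differed 6.78-fold (log2 change 2.76 with SE 0.19, adjusted p = 3.61e-08). Gstt3 rose 3.48-fold (adjusted p = 3.21e-06) from a vehicle median of 11.21 to 12.41, 13.12 and 13.32, and Gsta4, which takes lipid peroxidation products, 1.81-fold (adjusted p = 3.96e-06). Probe sets of transferases with near-identical copies may share signal, so the single members of this family are less certain than their number.

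Upstream sequences were set beside these changes, for 4 of the genes with the largest changes: 2 that rose and 1 that fell whose windows all hold the antioxidant response element core, the letters Nrf2 and its partners bind, and Dbp, the gene with the smallest adjusted p. Each line gives 250 bases before the gene's start from RefSeq (assembly GRCr8, plus strand), in lower case, with capitals at the core TGACNNNGC or the xenobiotic response element core GCGTG on either strand. In the Slc6a6 window 1 match to each core overlaps by 2 letters.
Gsta3 (chr9:31154739-31154988): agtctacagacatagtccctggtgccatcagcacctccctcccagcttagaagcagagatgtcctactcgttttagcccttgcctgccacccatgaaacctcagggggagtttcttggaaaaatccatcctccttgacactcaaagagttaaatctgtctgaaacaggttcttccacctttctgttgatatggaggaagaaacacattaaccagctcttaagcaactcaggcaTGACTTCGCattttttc
Usp2 (chr8:53310620-53310869): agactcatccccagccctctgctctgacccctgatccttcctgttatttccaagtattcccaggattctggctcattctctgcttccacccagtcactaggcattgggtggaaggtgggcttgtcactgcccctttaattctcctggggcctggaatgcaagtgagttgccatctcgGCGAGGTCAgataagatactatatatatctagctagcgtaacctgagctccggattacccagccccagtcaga
Slc6a6 (chr4:125752252-125752501): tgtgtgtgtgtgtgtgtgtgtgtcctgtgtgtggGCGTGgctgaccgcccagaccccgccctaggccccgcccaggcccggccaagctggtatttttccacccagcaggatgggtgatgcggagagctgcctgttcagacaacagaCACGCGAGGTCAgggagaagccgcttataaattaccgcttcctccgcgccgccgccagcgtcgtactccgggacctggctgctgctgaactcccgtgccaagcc
Dbp (chr1:105312006-105312255): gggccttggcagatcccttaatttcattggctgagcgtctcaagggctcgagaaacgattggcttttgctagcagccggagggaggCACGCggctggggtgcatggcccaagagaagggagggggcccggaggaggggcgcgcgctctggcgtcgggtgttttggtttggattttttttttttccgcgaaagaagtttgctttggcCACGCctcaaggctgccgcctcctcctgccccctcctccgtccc
The matches to TGACNNNGC begin 17 bases before the start in Gsta3, 73 in Usp2 and 101 in Slc6a6. Among the 15 largest rises 2 of 12 genes with a RefSeq window held these letters (Gsta3 and Usp2), and among the 15 largest falls 4 of 14 did (Slc6a6, Scd, Rprm and Cdkn1a). Over all genes, 1439 of 11734 windows held TGACNNNGC (12.3%), against 79 of 588 for the genes called higher (13.4%) and 64 of 475 for those called lower (13.5%). The E-box CACGTG, bound by Bmal1 and its partners, stood in 11.2% of windows of genes called higher, in 6.53% of those of genes called lower and in 7.82% of all. GCGTG was in 44.0%, 39.8% and 41.0%, the PPAR element core GGTCANAGG in 1.70%, 1.68% and 1.30%, and the D-box TTATGTAA in 0.510%, 0.632% and 0.477%, in the same order. A match describes the letters of the window and was not tested as a binding site.

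Drug-metabolising enzymes rose in part. The largest rise in this class was that of the carboxylesterase Ces2c, a hydrolase of esters and amides (probe set 1368905_at). Its vehicle arrays ran from 8.52 to 9.21 (median 9.12) and the treated arrays read 12.66, 13.21 and 12.63. The gap between the groups was many times their spread, and the means differed 14.4-fold (log2 change 3.85 with SE 0.21, adjusted p = 1.32e-09). Of 23 esterases and paraoxonases 8 rose and 1 fell, with 3 rises without treated replicate 1 and 5 without replicate 2. Ces2c was the only carboxylesterase of the Ces family among the rises, beside Esd, Nceh1, Pnpla7, Pnpla8, Afmid, Mgll and Apeh. Ces1c, Ces1d, Ces1e, Ces5a, Pon1, Pon2 and Pon3 were not called (adjusted p between 0.0548 and 0.964). Monoacylglycerol lipase, Mgll, rose 1.79-fold (adjusted p = 6.10e-05), while its second probe set did not pass (adjusted p = 0.254). Hepatic lipase, Lipc, fell by 0.55 on the log2 scale (adjusted p = 0.000858). Butyrylcholinesterase, Bche, whose protein organophosphates can inhibit, stood at 6.83, 6.34 and 6.68 against 6.35 to 6.69, inside or next to the vehicle range (adjusted p = 0.725).

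Of 41 cytochromes P450 of families 1 to 3 and their partners 9 rose and 4 fell. Cyp1a1, the main target of the aryl hydrocarbon receptor, ran from 5.58 to 6.12 (median 5.89) in the vehicle group and stood at 8.71, 8.48 and 7.46 at the top dose. Every treated array was above every vehicle array, and the rise was 5.02-fold (adjusted p = 4.82e-06). Cyp1a2, of the same family, did the opposite: its treated arrays read 12.30, 12.28 and 12.34, below the vehicle range of 13.30 to 13.66, a fall by 1.16 on the log2 scale (adjusted p = 8.69e-07). Cyp3a23-3a1, a PXR target, rose 1.85-fold (adjusted p = 0.000365) and stood at 13.60, 14.45 and 14.38 against 13.11 to 13.44. Por, the reductase that supplies electrons to these enzymes, rose 2.73-fold (adjusted p = 0.00333), and Cyp2j4, an arachidonic acid epoxygenase, 2.68-fold (adjusted p = 3.80e-06). Alas1, the rate-limiting enzyme of haem synthesis, ran from 9.98 to 11.17 (median 10.38) in the vehicle group and read 12.18, 13.07 and 11.88, a 3.66-fold rise without overlap (adjusted p = 0.000148). Of 18 genes of haem synthesis and breakdown 4 rose and none fell, and 2 rose without treated replicate 2.

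Conjugation and transport were split. Of 25 glucuronosyltransferases, sulfotransferases, their suppliers and acetyl- and methyltransferases 6 rose and 2 fell, with 3 rises without treated replicate 2. Ugt2b1 rose 2.23-fold (adjusted p = 3.17e-05) and Ugt2b10 1.76-fold (adjusted p = 6.48e-05), whereas the sulfotransferase Sult1c3 fell by 0.67 on the log2 scale (adjusted p = 0.000294). Among 27 drug and organic ion transporters 7 rose and 6 fell, with 4 rises without treated replicate 1, 2 falls without replicate 2 and 3 falls without replicate 3. Abcc3, which exports conjugates and bile salts towards the blood (probe set 1369698_at), stood between 6.65 and 7.24 (median 6.94) in the vehicle group and at 9.95, 10.38 and 9.96 at the top dose. The groups were widely separated, and the means differed 8.98-fold (log2 change 3.17 with SE 0.26, adjusted p = 3.30e-07). The multidrug exporter Abcb1a rose 3.13-fold (adjusted p = 2.60e-05), and the organic anion transporter Slc22a8 fell by 1.12 on the log2 scale (adjusted p = 0.000604).

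**Figure D2:**
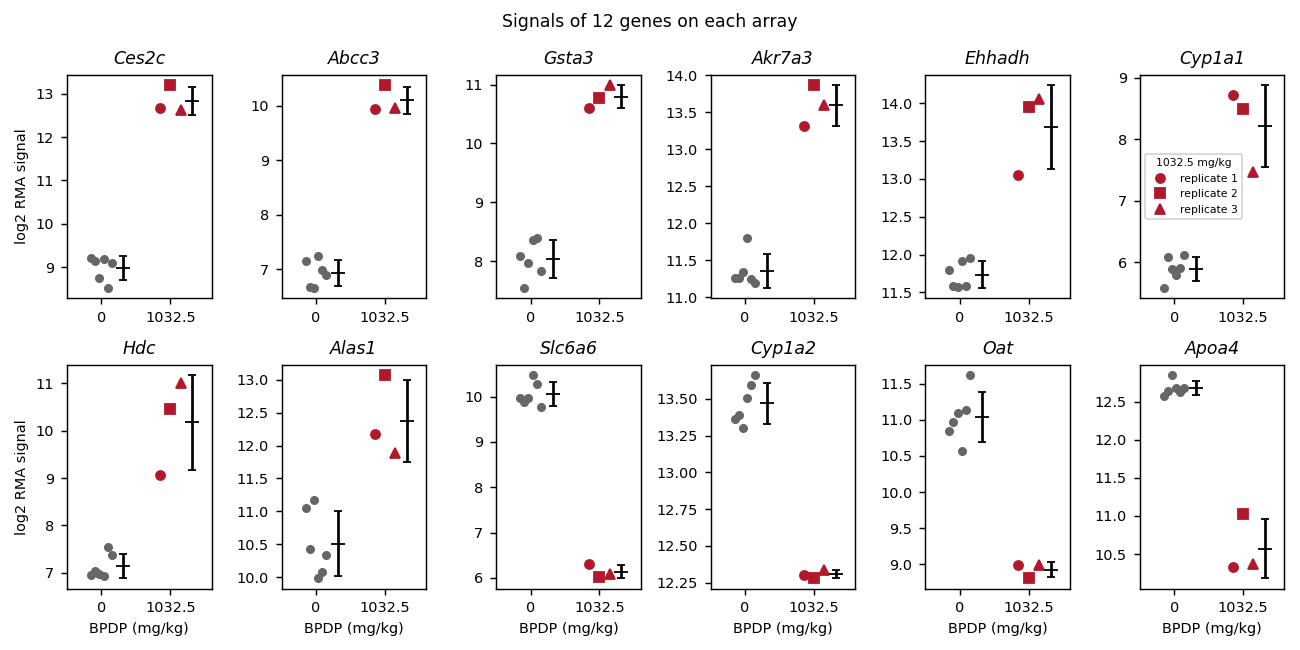
Log2 RMA signal of 12 genes on each of the 6 vehicle arrays (grey) and the 3 arrays at 1032.5 mg/kg (red, 1 symbol per replicate), with mean and SD in black; each panel has its own axis. In every panel the treated arrays lie beyond all vehicle arrays, and those of Hdc, Ehhadh and Alas1 are spread more widely than those of Oat and Cyp1a2.

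Transcripts of a part of the fatty acid oxidation enzymes rose, in the peroxisomal and the mitochondrial list. Of 48 peroxisomal enzymes and acyl-CoA thioesterases 19 rose and none fell. Compared with 64.6 mg/kg 17 of these 48 were also higher, against 1.29% of all genes. The cytosolic thioesterase Acot1 stood at 7.38, 11.46 and 10.37 on the treated arrays and between 3.39 and 3.70 in the vehicle group (adjusted p = 1.34e-06). Its vehicle signal belonged to the dimmest part of each array, so no fold is given, and treated replicate 1 lay far below the other two. Ehhadh, the bifunctional enzyme of peroxisomal beta-oxidation (probe set 1368283_at), ran from 11.57 to 11.95 (median 11.69) in the vehicle group and read 13.05, 13.96 and 14.06, with replicate 1 again lowest. The rise was 3.88-fold (log2 change 1.95, SE 0.18, adjusted p = 8.69e-07). The dienoyl-CoA isomerase Ech1 rose 3.13-fold (adjusted p = 5.22e-05), the mitochondrial thioesterase Acot2 3.12-fold (adjusted p = 1.82e-06) and Pex11a, a peroxisome division factor, 2.17-fold (adjusted p = 0.000204).

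Of 37 genes of mitochondrial fatty acid oxidation and ketogenesis 14 rose and 3 fell, with 1 fall without treated replicate 1. The pantetheinase Vnn1 rose 3.49-fold (adjusted p = 3.38e-05), from a vehicle median of 10.21 to 11.50, 12.06 and 11.95. Vnn1 is counted in this list but is not itself an enzyme of fatty acid oxidation. The enoyl-CoA isomerase Eci1 rose 2.83-fold (adjusted p = 1.34e-05), although its second, dimmer probe set did not pass (adjusted p = 0.651). Acat1, which joins acetyl-CoA units on the way to ketone bodies, rose 2.60-fold (adjusted p = 6.60e-07), with treated values of 12.92, 12.90 and 13.25 above a vehicle range of 11.27 to 11.92. Pdk4, the kinase that shuts pyruvate dehydrogenase, fell by 1.07 on the log2 scale (adjusted p = 0.023). That call was lost without treated replicate 1 (adjusted p = 0.216) and with the replicate number as a block (adjusted p = 0.227). It was also lost with array weights (adjusted p = 0.062) and with only the 2 groups in the fit (adjusted p = 0.0784). Acsl5, an acyl-CoA synthetase, fell by 1.25 on the log2 scale (adjusted p = 1.66e-05), while its second probe set did not pass (adjusted p = 0.854). Among 11 omega-hydroxylases and partners 2 rose and 1 fell: Cyp4a1, at 12.15, 13.46 and 13.45 against 11.31 to 11.91, rose 2.58-fold (adjusted p = 0.000517) and the fatty aldehyde dehydrogenase Aldh3a2 1.47-fold (adjusted p = 0.00058).

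Lipid synthesis and storage genes moved both ways. Of 29 genes of fatty acid and triglyceride synthesis 4 rose and 4 fell, and 2 rose when treated replicate 1 or 2 or vehicle replicate 2, 4 or 6 was left out. The desaturase Scd had the largest fall of the group, with 7.34, 7.19 and 8.98 on the treated arrays against a vehicle range of 9.76 to 12.26 (median 11.10). The vehicle arrays spread over more than 2 log2 units, yet none overlapped with the treated ones, and the fall was 10.2-fold (adjusted p = 0.000455). Fatty acid synthase, Fasn, stood at 11.16, 10.69 and 11.12, within the vehicle range of 10.47 to 12.27 (adjusted p = 0.89). The liver pyruvate kinase Pklr fell by 1.21 on the log2 scale (adjusted p = 5.26e-05).

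Among 45 genes of lipid droplets, lipases, lipoproteins and glycerol 5 rose and 10 fell, with 3 rises and 5 falls without treated replicate 3 and 6 falls without replicate 1. The droplet protein Cidea rose 5.36-fold (adjusted p = 1.49e-05), with 10.16, 11.06 and 11.07 above a vehicle range of 7.56 to 8.74. The glycerol channel Aqp7 rose 3.95-fold (adjusted p = 1.53e-06). Plin2, the coat protein of droplets, moved the other way, from a vehicle range of 12.72 to 13.40 to 11.33, 11.97 and 11.61 (fall by 1.38 on the log2 scale, adjusted p = 5.60e-06). Apoa4, an apolipoprotein of triglyceride-rich particles, fell 4.30-fold (adjusted p = 3.96e-06), from 12.58 to 12.85 in the vehicle group to 10.33, 11.02 and 10.37.

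Of 26 genes of cholesterol synthesis and uptake 1 rose and 2 fell, against 4.81% and 4.14% of all genes. The rise, that of Msmo1 (adjusted p = 0.0448), was lost without any 1 of the treated arrays (adjusted p = 0.209, 0.0665 and 0.12). Insig2, a brake on sterol regulatory element binding proteins, fell by 1.53 on the log2 scale (adjusted p = 0.000767) and the sterol exporter subunit Abcg8 by 1.43 (adjusted p = 0.000868). In bile acid synthesis and transport 5 of 25 rose and 4 fell, with 3 rises without treated replicate 1 or 2 and 2 falls without replicate 3. The repressor Nr0b2, which dampens bile acid synthesis, ran from 7.73 to 9.35 (median 8.62) in the vehicle group and read 10.92, 10.72 and 9.97, a 3.72-fold rise without overlap (adjusted p = 0.000746). Cyp7a1, the rate-limiting enzyme of bile acid synthesis, read 11.97, 10.45 and 11.60, with treated arrays inside and above the vehicle range of 9.87 to 11.86 (log2 change 0.23, SE 0.40, adjusted p = 0.844). Slc27a5, the bile acyl-CoA synthetase, fell by 0.82 on the log2 scale (adjusted p = 0.000357).

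The circadian clock and its outputs formed the group with the largest share of called members: of 25 measured genes 12 rose and 4 fell. With any 1 treated or vehicle array left out, 3 fell and 11 to 13 rose. The weakest of the 4 falls was that of Clock (log2 change -0.47, adjusted p = 0.0475). The rises include the steroid dehydrogenase Hsd17b2, which was placed in this list as an output. Dbp, the albumin D-box binding factor through which the clock acts on metabolic genes (probe set 1387874_at), ran from 5.44 to 6.10 (median 5.77) in the vehicle group and stood at 10.87, 10.59 and 10.24 at the top dose. The rise was 27.6-fold (log2 change 4.78, SE 0.23, adjusted p = 2.11e-10). Outputs of the same loop rose with it: the deubiquitinase Usp2 stood at 9.58, 9.90 and 9.43 against 6.24 to 7.35 and rose 6.71-fold (adjusted p = 6.44e-06). The deadenylase nocturnin, Noct, at 9.26, 9.39 and 7.58 against 5.44 to 6.32, rose 6.85-fold (adjusted p = 0.000466), with replicate 3 lowest. Per3 rose 5.36-fold (adjusted p = 4.16e-06), while its second, dimmer probe set did not pass (adjusted p = 0.512). On the activating side Bmal1 read 5.63, 5.46 and 6.22 against 8.08 to 8.84 and fell 6.74-fold (adjusted p = 9.63e-07). Npas2, its partner, read 5.31, 5.59 and 5.46 against 8.77 to 9.11, an 11.3-fold fall (adjusted p = 1.84e-07).

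Of the 16 clock genes called at the top dose, 11 were also called in the same direction at 64.6 mg/kg, and in 12 the log2 difference from the vehicle there was at least 0.7 of that at the top dose. The other 4 were Npas2, Hlf, Noct and Wee1. Dbp averaged 10.21 ± 0.23 (SD, n = 3) at 64.6 mg/kg, while the top dose averaged 10.57 ± 0.32 (n = 3). Between the lowest and the highest dose 1 of the 25 clock genes was higher and 1 lower, against 1.29% and 0.872% of all genes. The higher was the kinase Wee1 (log2 difference 0.84, adjusted p = 0.00603) and the lower Npas2 (log2 difference -1.99, adjusted p = 0.00192). Noct stood 2.01 above the lowest dose (adjusted p = 0.0567) and Hlf 0.65 (adjusted p = 0.261), neither passing the test. The time of day at which each liver was taken is not given in the sources used here. Whether time of collection moved with dose was not tested.

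**Figure D3:**
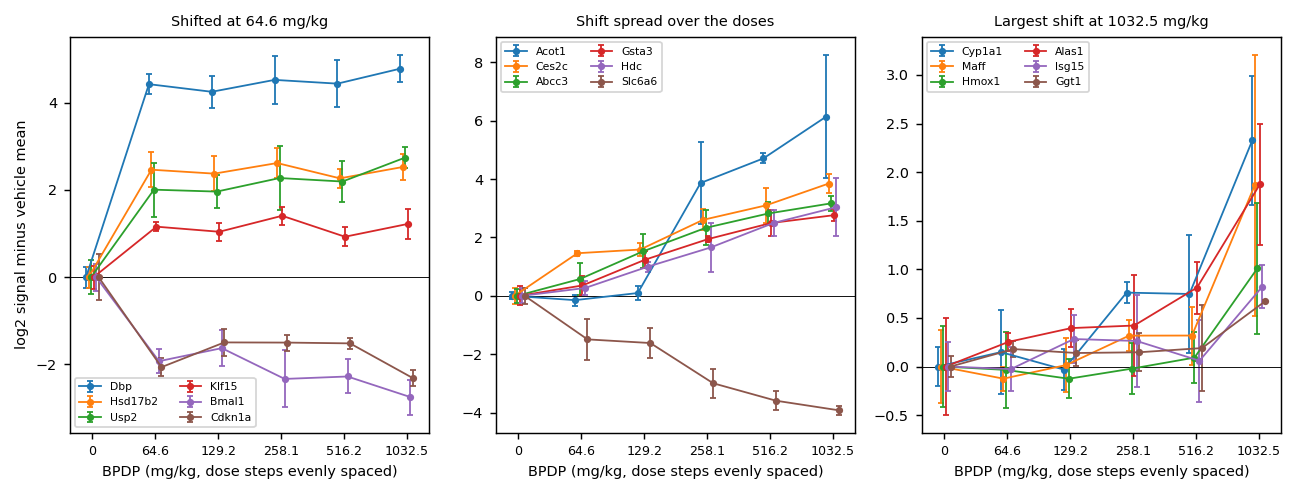
Mean log2 signal minus the vehicle mean at each dose for 18 genes, chosen after their values were seen, with bars of ±1 SD (n = 3 per dose, n = 6 for the vehicle) and dose steps drawn at even distance. Left, genes whose difference from the vehicle at 64.6 mg/kg was most of that at 1032.5 mg/kg; middle, genes whose difference grew over several doses; right, genes whose largest difference stood at 1032.5 mg/kg. Dbp, Ces2c, Abcc3 and Hdc in the other panels also stood furthest from the vehicle at 1032.5 mg/kg, so the panels are not separate classes. The error bars of Acot1, Maff and Hmox1 at the top dose are wide.

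In the amino acid response driven by ATF4, 8 of 33 genes rose and 1 fell, and 5 rose without treated replicate 1. Asparagine synthetase, Asns, ran from 7.51 to 8.48 (median 7.95) in the vehicle group and read 10.63, 9.26 and 9.26, so that replicate 1 lay above the others. The rise was 3.34-fold (adjusted p = 0.00095). The serine pathway enzymes Psat1 (3.08-fold, adjusted p = 0.000618) and Phgdh (2.55-fold, adjusted p = 0.0033) rose as well. Of 31 ER chaperones and heat shock proteins 1 rose and 2 fell, against 4.81% and 4.14% of all genes. With 1 array left out, 1 to 3 fell. Herpud1, of ER-associated degradation, rose 1.58-fold (adjusted p = 0.0015) and the chaperone partner Sdf2l1 fell by 0.67 on the log2 scale (adjusted p = 0.00169). Of 42 proteasome subunits and regulators 4 rose and none fell, with 2 rises without treated replicate 2 and 15 with array weights.

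A part of the secreted plasma proteins was lower. Of 51 acute phase, complement and coagulation proteins 16 fell and 1 rose. Compared with 64.6 mg/kg 8 of the 51 were lower, against 0.872% of all genes. The lectin Mbl2 read 12.55, 12.19 and 12.35 against 12.79 to 13.29 and fell by 0.76 on the log2 scale (adjusted p = 8.96e-05), and the related protease Masp1 fell by 0.56 (adjusted p = 0.00142). A2m, an acute phase protein of the rat, read 9.09, 8.10 and 8.92, below a vehicle range of 9.28 to 12.66 that itself spanned more than 3 log2 units. Its adjusted p of 0.0441 rose to between 0.0545 and 0.201 under 12 of the alternatives, each treated array left out included. Without treated replicate 2 or 3, 7 of the 51 were called lower, and at a fold of at least 1.5 as well 2 were.

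Genes of the growth hormone axis and genes with sex-biased levels fell in 10 and rose in 2 of 32 cases, with 1 rise without treated replicate 1 or 2. The male-specific Cyp2c11 read 12.59, 13.85 and 13.47 against a narrow vehicle range of 14.07 to 14.30 and fell by 0.92 on the log2 scale (adjusted p = 0.00124), with replicate 1 lowest. The female-predominant Cyp2c12 rose 1.74-fold (adjusted p = 0.0032). Socs2, a feedback inhibitor of the hormone's receptor, fell by 1.52 (adjusted p = 0.0136), a call lost without treated replicate 1 (adjusted p = 0.0878), without replicate 2 (adjusted p = 0.0543) and with only the 2 groups in the fit (adjusted p = 0.0817). Igfbp1, an insulin-suppressed binding protein for insulin-like growth factors, fell by 2.12 (adjusted p = 0.0236), and lost its call under 5 alternatives (adjusted p between 0.0531 and 0.165), among them the omission of treated replicate 2 or 3.

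Of 16 genes expressed next to the central vein 6 fell and none rose, and of 16 periportal genes 2 rose and 3 fell. Without treated replicate 2, 4 pericentral genes fell. Oat, ornithine aminotransferase of the pericentral zone (probe set 1367729_at), ran from 10.57 to 11.62 (median 11.04) in the vehicle group and read 8.99, 8.81 and 8.99. The fall was 4.32-fold with treated arrays almost alike (log2 change -2.11, SE 0.18, adjusted p = 3.16e-07). Aldh1b1, a periportal aldehyde dehydrogenase, fell by 1.05 (adjusted p = 0.00234), whereas the urea cycle enzyme Arg1 rose 1.42-fold (adjusted p = 0.000327).

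The largest fall among genes whose groups did not overlap was that of a taurine carrier. Slc6a6, the taurine transporter (probe set 1374531_at), stood between 9.77 and 10.48 (median 9.97) in the vehicle group and at 6.30, 6.02 and 6.09 at the top dose. The fall was 15.2-fold (log2 change -3.92, SE 0.26, adjusted p = 1.42e-08), and its second probe set fell by 2.13 on the log2 scale (adjusted p = 0.000107). Among 19 genes of taurine transport and cysteine breakdown Slc6a6 alone fell and 3 rose, among them the gamma-glutamyl transferase Ggt1 (1.59-fold, adjusted p = 0.00281), which read 6.92, 6.89 and 6.90 against 6.09 to 6.34, and the sulfide oxidoreductase Sqor (1.66-fold, adjusted p = 0.00187).

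Among 54 genes of nitrogen disposal and amino acid breakdown 5 rose and 9 fell, with 3 rises without treated replicate 1, 8 without vehicle replicate 6 and 4 falls without treated replicate 2. Kynureninase, Kynu, of tryptophan breakdown, read 11.14, 10.99 and 11.30 against 11.98 to 12.48 and fell by 1.07 on the log2 scale (adjusted p = 3.84e-05). The alanine aminotransferase Gpt rose 1.75-fold (adjusted p = 0.00195). In glycolysis, gluconeogenesis and glycogen metabolism 2 of 33 rose and 4 fell, with 2 falls without treated replicate 2, among them Gckr, the regulator of glucokinase, by 0.90 (adjusted p = 2.34e-05) and the triokinase Tkfc by 1.24 (adjusted p = 5.03e-05). Both rises lost their call without treated replicate 1 (Pck2, adjusted p = 0.0561, and Ugp2, adjusted p = 0.0782), and Ugp2 also without replicate 2 (adjusted p = 0.0694).

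Few cell cycle genes were called. Of 51 measured 1 rose and 1 fell, and Mki67, the marker of cycling cells, read 4.96, 4.28 and 5.36 against 4.45 to 6.31, close to or below the lower quartile of the arrays (adjusted p = 0.398). Among 20 p53 targets and regulators 1 rose and 3 fell. The cyclin-dependent kinase inhibitor Cdkn1a ran from 9.56 to 11.06 (median 10.01) in the vehicle group and read 7.59, 7.82 and 7.94, a 4.98-fold fall without overlap (adjusted p = 1.53e-06). Mdm2, the ubiquitin ligase of p53, moved the other way and rose 1.85-fold (adjusted p = 1.42e-05), with 9.36, 9.59 and 9.02 against 8.27 to 8.59. Of 35 immediate early genes and Kruppel-like factors 2 rose and 4 fell. Egr1, an early response factor, read 6.20, 5.85 and 6.33 below a wide vehicle range of 7.77 to 10.38, a 7.08-fold fall (adjusted p = 0.00147), and Klf15, a factor of fasting metabolism, rose 2.33-fold (adjusted p = 4.13e-05).

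Among markers of other cells of the liver more were called lower than higher, and in bulk tissue fewer cells of a type and less RNA per cell cannot be told apart. Of 20 markers of stellate cells and fibroblasts 7 fell and none rose, with 3 falls without treated replicate 2 and 4 without treated replicate 1 or 3 or vehicle replicate 2 or 5, and the mean level of the list was 7.21, 7.16 and 7.15 on the treated arrays and ran from 7.35 to 7.79 in the vehicle group. The receptor Pdgfrb fell by 0.95 on the log2 scale (adjusted p = 0.000604), while its second probe set did not pass (adjusted p = 0.697). Of 13 macrophage markers 3 fell and 1 rose. Without treated replicate 3, 1 fell and none rose, and without vehicle replicate 5, 5 fell. The lysozyme Lyz2 fell by 0.89 (adjusted p = 0.00229), and the co-receptor Cd14 rose 1.58-fold (adjusted p = 0.0113). The Cd14 call was lost without treated replicate 3 (adjusted p = 0.0534) and with the replicate number as a block (adjusted p = 0.101). Of 17 lymphocyte markers 2 fell, of 15 endothelial markers 1 fell, and of 9 neutrophil markers none was called. Haemoglobin beta, Hbb, read 11.54, 11.76 and 10.47 against 12.34 to 13.72 and fell by 2.01 (adjusted p = 0.00506), 1 of 3 falls among 7 red cell markers. All 3 of those calls were lost without treated replicate 3, as for Hbb (adjusted p = 0.0567).

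Histidine decarboxylase, Hdc, which makes histamine, rose from a vehicle range of 6.93 to 7.54 (median 7.01) to 9.06, 10.45 and 11.01. The rise was 8.20-fold (log2 change 3.04, SE 0.33, adjusted p = 6.58e-06). It is also a marker of mast cells, and none of the other 10 measured markers of that list was called. The protease Cpa3 averaged 5.73 at the top dose and 5.85 in the vehicle group (adjusted p = 0.741), and the receptor Kit 4.53 and 4.57 (adjusted p = 0.865).

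Set against the neighbouring dose of 516.2 mg/kg, no gene was called (0% of 14217; smallest adjusted p = 0.0625), while 1471 genes had an unadjusted p under 0.05. For probe sets 8 were called without treated replicate 3, and 86 without replicate 2 of 516.2 mg/kg. The comparisons with vehicle, 516.2 and 64.6 mg/kg share the 3 treated arrays, so their values are given side by side. Ces2c averaged 12.83 ± 0.32 (SD, n = 3) at the top dose, 12.08 ± 0.61 at the next lower dose and 10.44 ± 0.08 at the lowest, each with n = 3. Cyp1a1 averaged 8.22 ± 0.67, 6.64 ± 0.61 and 6.04 ± 0.44 in the same order, and its difference of 1.58 from 516.2 mg/kg did not pass (SE 0.28, adjusted p = 0.121). Alas1 stood 1.06 above 516.2 mg/kg (adjusted p = 0.353), and Maff 1.55 (adjusted p = 0.296).

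Against 64.6 mg/kg 308 genes differed (2.17%), 184 higher (1.29%) and 124 lower (0.872%). The median log2 difference from vehicle of the 684 genes called higher at the top dose was 0.54 there, 0.45 at 516.2 and 0.14 at 64.6 mg/kg. For the 588 called lower it was -0.53, -0.36 and -0.17. These genes were chosen at the top dose, so the first value for each set is fixed in sign by that choice. By this comparison Abcc3 was 6.03-fold higher at the top dose than at the lowest (adjusted p = 0.000124), Gsta3 5.30-fold (adjusted p = 1.59e-05) and Hdc 6.82-fold (adjusted p = 0.000504). Slc6a6 was 5.39-fold lower (adjusted p = 0.000183). Hsd17b2, the dehydrogenase that inactivates oestradiol and testosterone, rose 5.77-fold against vehicle (adjusted p = 1.57e-07). It did not differ by the test from 64.6 mg/kg (log2 difference 0.06, SE 0.23, adjusted p = 0.944). This gene is also counted in the clock list above.

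The 3 treated arrays did not respond alike, and their order differed between gene groups. Among the genes called higher, replicate 1 was the lowest array for 16 of 19 peroxisomal and thioesterase genes, 11 of 14 genes of mitochondrial oxidation and 8 of 9 glutathione transferases. Replicate 3 was the lowest for 11 of 12 clock genes and 8 of 8 genes of the ATF4 response, and replicate 2 was the highest for 14 of 17 Nrf2 genes. Among the 16 plasma protein genes called lower, replicate 1 was the highest, that is the least reduced, for all 16. Over all 684 genes called higher, replicate 1 was lowest for 177, replicate 2 for 225 and replicate 3 for 282, and replicate 2 was the highest for 207. Over all 588 genes called lower, replicate 1 was the highest for 313. The genes of a group share these 3 arrays and are not independent, so no test is given. The integrity measure of the control probe sets ran -1.96, -1.37 and -1.28 over replicates 1, 2 and 3, and its part in these orders was not tested.

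**Figure D4:**
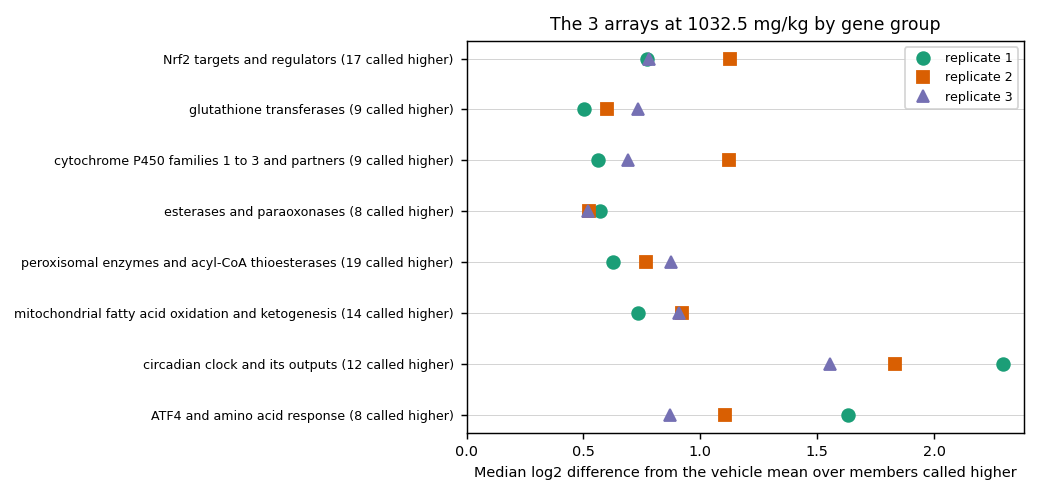
Median log2 difference from the vehicle mean on each of the 3 arrays at 1032.5 mg/kg, over the members called higher, for the groups with at least 8 such members. Replicate 1 is lowest in the peroxisomal, mitochondrial, glutathione transferase and cytochrome P450 groups, and in the Nrf2 group just below replicate 3. It is highest in the clock and ATF4 groups and, by a small margin, in the esterase group.

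The genes with the widest spread among called ones followed the same lines. Acot1 had the largest SD over the treated arrays, 2.11, followed by Maff at 1.34. Stac3, an adaptor known from muscle calcium release, read 9.79, 7.94 and 8.54 against a vehicle range of 10.27 to 12.34, a 6.21-fold fall in which replicate 1 changed least (adjusted p = 0.000718). Serpina7, the thyroxine-binding globulin, read 10.55, 8.32 and 9.79 against 10.26 to 11.27, with 1 treated array inside the vehicle range. Its fall by 1.26 (adjusted p = 0.0368) was not called without treated replicate 2 (adjusted p = 0.322) and under 8 alternatives in all. Akr1b7, an aldo-keto reductase, read 8.57, 8.36 and 6.59 against 4.48 to 6.82 and rose 6.09-fold (adjusted p = 0.0146), a call lost without treated replicate 1 (adjusted p = 0.0992) or 2 (adjusted p = 0.0925).

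Further large changes concerned genes outside these groups. Zfp354a, a zinc finger protein, rose 10.1-fold (adjusted p = 1.11e-05), from a vehicle range of 8.03 to 9.41 to 12.32, 12.16 and 11.18. Cryl1, a dehydrogenase of the uronate cycle, rose 4.88-fold (adjusted p = 8.52e-09), with 11.11, 11.09 and 10.86 against 8.37 to 9.15. The phosphate transporter Slc34a2 fell 4.86-fold (adjusted p = 1.42e-05). Agtr1a, the angiotensin II receptor, fell by 1.10 on the log2 scale with a small error (SE 0.09, adjusted p = 3.58e-07), and its second probe set fell by 0.93 (adjusted p = 0.00138).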

How the data were processed

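Per the submitters' processing notes the authors summarised the arrays by RMA, and the deposited table holds 1 log2 signal for each probe set on each array. Which software ran RMA is not stated in these sources. No further scaling or filter was applied. With 57 array controls set aside, 31042 probe sets entered the tests, and each of 14217 genes was represented by the brightest probe set naming that gene alone. Symbols were updated through the RefSeq table of GRCr8. Cyp2b2, meant as an index gene, has no such probe set and is not analysed here.

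limma 3.58.1 in R 4.3.3 (lmFit, eBayes) fitted all 21 arrays with 1 coefficient per dose group, so that all groups share the estimate of spread. P-values are two-sided and carry Benjamini-Hochberg adjustment across every probe set, at a threshold of 0.05. Folds are differences of log2 means turned to the linear scale. Precision is limited by the number of arrays. The fit was tested on simulated data. The members, the 43 gene lists and the tests were chosen with earlier results of these data known.

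Genes were named by a rule: the 15 largest rises and 15 largest falls without overlap between groups, the 5 and 5 smallest adjusted p-values, per list up to 3 called rises and 2 called falls with the largest change (the 2 brightest members where none was called), the 5 and 5 largest called differences from the neighbouring and the lowest dose, the 8 called genes with the largest spread at the top dose, and fixed index genes. It named 150 genes, and up to 3 further members of a list are given by value. Alternatives were a fit of only the groups compared, cyclic loess, median subtraction, removal of dim probe sets, 1 probe set per gene, the mean or the next of a gene's probe sets, array weights, a variance trend over intensity with robust estimation, a minimum fold, a covariate for the control probe sets' 5′ minus 3′ difference, the replicate number as a block, and each array left out.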

Additional observations from a re-analysis of the deposited data

Results flagged for a closer look

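In the vehicle group of 6 arrays, 12 of the 150 named genes had 1 array set apart from the rest by more than Dixon's critical value of 0.625 (gap to the nearest array over the whole range). Chance flags about 1 in 20 such groups. The lone array was replicate 6 for 4 of these genes: Rprm (ratio 0.721), Cyp4f6 (0.711), Slc28a2 (0.656) and Sdsl (0.713). It was replicate 2 for Per3 (0.688), Dio1 (0.645) and Stab1 (0.800), and replicate 3 for Eci1 (0.768) and Kif11 (0.685). It was replicate 4 for Akr7a3 (0.768), where it stood at 11.81 on the log2 scale against a group median of 11.26, and replicate 5 for Ahsg (0.811). For Hbb (0.637) replicate 1 stood lowest in the vehicle group, at 12.34 against a median of 13.40.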

How the results depend on the processing

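Against vehicle, 1908 probe sets were called, 2884 with array weights and 841 with a fold of at least 1.5 as well; with 1 array left out the count ran from 1136 (treated replicate 2) to 2052 (vehicle replicate 6). For genes it was 1272, 551 with that fold, and 769 to 1345 with 1 array left out. Between 1032.5 and 516.2 mg/kg no probe set was called by limma (2886 at an unadjusted p under 0.05), 10 with array weights, 1 with 1 probe set per gene, 1 with an intensity trend and robust variance, and 0 to 86 with 1 array left out. Between 1032.5 and 64.6 mg/kg 458 were called, 820 with array weights, 284 with only the groups compared, and 213 to 380 with 1 array left out. The cause of these shifts was not tested.

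Same-numbered treated and vehicle arrays did not deviate together (r of their deviations -0.167, -0.065 and -0.006). No pairing by number was seen, though these few values cannot exclude it. With the replicate number as a block 1483 probe sets and 1002 genes were called against vehicle, 463 probe sets against 64.6 and 0 against 516.2 mg/kg. With each array's median subtracted 1062 probe sets were higher and 672 lower, and with cyclic loess 1059 and 991, against 1024 and 884 as reported. No scaling moved the median log2 difference of all probe sets by more than 0.029. Among the 150 named genes no direction changed except with other probe sets: Psme1 (-0.023 on its next probe set), Bckdha (-0.19) and Ndufv3 (0.74 on its next probe set and 0.21 on the mean of its probe sets). Of 21 list counts of at least 5 members, 7, 8 and 5 moved by over 1.5 times without treated replicate 1, 2 and 3, 13 with the minimum fold and at most 5 under each of the other alternatives, and counts of fewer than 5 members often turned on 1 array. The number of arrays limits all values, and the signals of genes below the lower quartile of the arrays are close to background.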

Other observations

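Aldh1a1, the retinal dehydrogenase, rose 2.72-fold (adjusted p = 2.10e-06) and stood at 13.48, 14.04 and 14.07 against 12.10 to 12.74, 1 of 6 rises among 31 genes of steroid dehydrogenases and thyroid hormone handling. In that list 3 genes fell, 1 without treated replicate 2 and 5 without vehicle replicate 6. Of 28 interferon-stimulated genes 4 rose and 1 fell, but none rose without treated replicate 1, and 2 rose without treated replicate 2 or 3 or vehicle replicate 2, 4 or 5. The ubiquitin-like protein Isg15 rose 1.77-fold (adjusted p = 0.0134), while the factor Irf1 fell by 1.14 on the log2 scale (adjusted p = 0.000858). The Isg15 call was lost without treated replicate 1 (adjusted p = 0.0973) and with the replicate number as a block (adjusted p = 0.0839). Of 17 glucocorticoid targets and metallothioneins 3 rose and 1 fell, with 1 rise without treated replicate 1. Klf9 rose 1.79-fold (adjusted p = 0.00675), while its second, dimmer probe set did not pass (adjusted p = 0.374).

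Tubb2a, a beta tubulin, fell 5.94-fold (adjusted p = 1.86e-07), with 9.89, 9.78 and 10.14 against 12.26 to 12.77. Of 16 tubulins and their cofactors 2 fell and none rose. None of 41 cytosolic ribosomal protein genes was called, with log2 changes from -0.26 to 0.19, and of 67 subunits of oxidative phosphorylation 3 rose and 1 fell, with no rise without treated replicate 3, 1 without treated replicate 1 or 2 or vehicle replicate 2 and 6 without vehicle replicate 6. The oxidative phosphorylation gene counted as a fall was Ndufv3. Its next probe set was called in the opposite direction (log2 change 0.74, adjusted p = 0.000359), so the direction for this gene is unsettled. Epcam, a surface protein of bile duct cells, rose 1.63-fold (adjusted p = 0.00233), 1 rise among 9 markers of that cell type.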
